A study of Mus musculus with 2 samples.

Results

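The genes described here move sodium, calcium, chloride, bicarbonate and organic osmolytes across the membranes of a cell, or control the genes that do. They were a list of 34 symbols grouped by function and drawn up with earlier results of these data known, and every probe set that the array annotation assigned to a single listed gene was used. This gave 89 probe sets for 30 genes, out of 34945 probe sets for 18193 genes in the whole series. The other 4 listed genes, Slc4a7, Itpr1, Cacnb3 and Akr1b3, had no such probe set, and their expression was not analysed here. The cells were primary osteoblasts, which form bone, taken from the calvariae of C57BL/6 mice aged 5 days. The cells were cultured for 3 days in medium with 10% serum, starved of serum overnight and then kept for 6 h in serum-free medium. The control culture had 1 mM phosphate and the treated culture 4 mM phosphate, both at pH 7.2. The extra phosphate came with sodium, as a sodium phosphate stock of 0.5 M, so the treated medium gained sodium as well as phosphate, and no medium with added sodium alone was among the samples. With 1 array per condition there is no replicate error and no test between the media, and all differences describe these 2 arrays.

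Sodium and calcium are kept low inside cells by pumps that spend ATP, and the sodium gradient then drives exchangers and cotransporters, among them the sodium-dependent phosphate importers. Calcium enters the cytosol from outside through channels of the plasma membrane or from the endoplasmic reticulum, and it acts there as a signal, including on genes through calcineurin and the NFAT transcription factors. Cells in a medium of higher osmolarity take up or make organic osmolytes such as taurine, myo-inositol and sorbitol, under control of the tonicity-responsive transcription factor NFAT5. In osteoblasts and osteocytes, connexin 43 gap junctions, pannexin 3 channels and several calcium channels are known to take part in differentiation and in the response to load.

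The values are MAS5 signals, a scaled intensity in arbitrary units, and differences are given as the log2 ratio of 4 mM over 1 mM phosphate. Signals below 21.5, the median over both arrays together, were raised to this floor, and a gene was called measured if at least 1 array lay above it. A gene took the value of its brightest probe set. Of the 30 genes, 28 were measured, all of them above the floor on both arrays, and 64 of their probe sets were measured. The calcium pump gene Atp2b4 and the sodium-calcium exchanger gene Slc8a1 lay at or under the floor on both arrays in all of their 1 and 4 probe sets. As the only available measure of error, the log2 ratios of different probe sets that name one gene were compared. Their SD was 0.42 where the dimmer signal was under 100, 0.26 from 100 to 400 and 0.16 above 400, which covers differences between probe sets but not between cultures.

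None of the 28 measured genes was 2-fold different between the 2 media. Over all 12276 measured genes, 282 (2.3%) were 2-fold or more higher in 4 mM phosphate and 359 (2.92%) were lower by as much, 5.22% in all. The 28 log2 ratios ran from -0.74 to 0.73, with a median of 0.08 against -0.06 over all measured genes. Of the 28, 17 (60.7%) were above 0, against 44.1% of all measured genes. At 1.5-fold (a log2 ratio of 0.58), 4 genes (14.3%) were higher and 4 (14.3%) lower, 28.6% in all. The same shares over all measured genes were 7.26%, 12.1% and 19.4%. The 4 higher genes were Orai1, Atp1b1, Gja1 and Atp2a2, and the 4 lower ones were Slc9a8, Panx3, Trpv2 and Kcnk2. The 1.5-fold limit was set with the values known, and Atp2a2, at a log2 ratio of 0.59, and Slc6a6, at -0.57, lay just inside and just outside it.

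**Figure D1:**
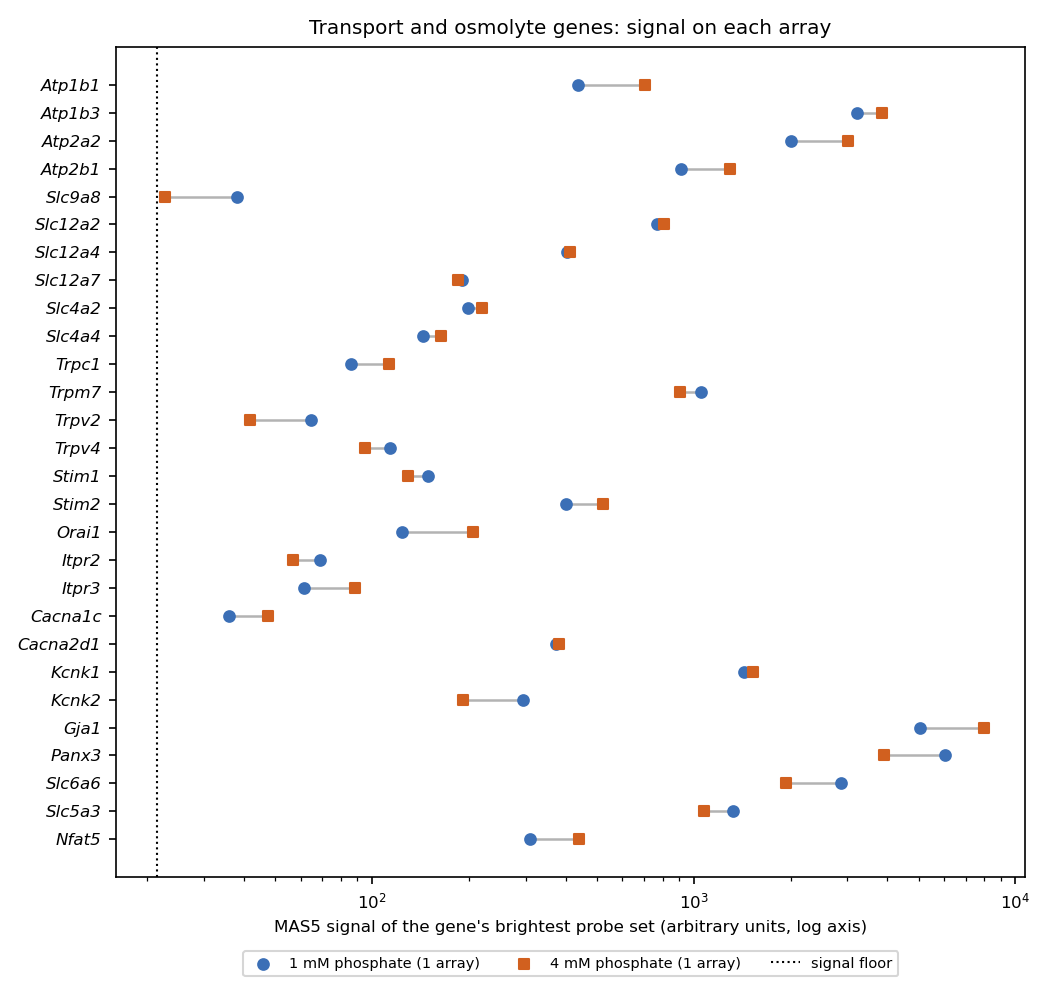
MAS5 signal (arbitrary units, log axis) of the brightest probe set of each of the 28 measured genes in 1 mM phosphate (circles) and 4 mM phosphate (squares), 1 array each, with the signal floor of 21.5 dotted. The 2 marks of each gene lie within 2-fold of each other. Levels of different genes come from different probes and are not comparable.

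The scaling of the arrays bears on every direction given here. Bacterial poly-A RNAs are spiked into a sample ahead of labelling, and their 24 probe sets had a median log2 ratio of 0.46. The 18 probe sets of the manufacturer's hybridization controls had a smaller median of 0.23. Which of these controls is the better reference was not tested. With the poly-A spikes set to equal signal, the median over all measured genes went from -0.06 to -0.51. That of the 28 genes went from 0.08 to -0.38. The distance between both medians hardly differed, at 0.14 and 0.12. On that scale 7 of the 28 genes stayed above 0, namely Atp1b1, Atp2a2, Atp2b1, Gja1, Itpr3, Nfat5 and Orai1. Directions below are those of the deposited scaling and are relative to the other genes on the array, and the other 10 of the 28 genes above 0 turn below 0 with equal spikes. Cell type markers were compared on the same arrays, each by its brightest probe set. The 6 measured osteoblast markers were bright and within 1.5-fold by that value. In 1 and 4 mM phosphate, Col1a1 was at 10139 and 11889 and Sp7 at 1600 and 1223. Col1a2 ran from 0.21 to 0.78 over its 3 measured probe sets. The 5 chondrocyte markers were also detected (signals summing to 10285 and 9521) and had log2 ratios between -0.14 and 0.17. The endothelial markers Pecam1, Cdh5, Kdr and Tek were at or under the floor on both arrays, as were the muscle regulators Myod1 and Myog, the smooth muscle myosin gene Myh11 and the neural genes Snap25, Rbfox3 and Gfap. The other 4 genes of the smooth muscle and pericyte list, among them Acta2, had log2 ratios between -0.38 and 0.27. The other 3 skeletal muscle genes were dim, with signals summing to 97 and 60, and Acta1 went from 55.88 to 21.55 (-1.37). The remaining measured neural gene, Tubb3, was at 116.9 and 85.47 (-0.45). All 7 macrophage markers were lower in 4 mM phosphate on their brightest probe sets, with signals summing to 11824 and 10359 and a median log2 ratio of -0.56. Of these signals Lyz2 held 7895 and 7745 (-0.03), and Csf1r ran from -0.56 to 0.15 over its 3 measured probe sets. In bulk RNA, fewer cells of a type and less RNA per cell cannot be told apart.

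Promoter sequences from RefSeq (GRCm38.p6) were set beside the ratios for 4 genes, each on one side of 0 in every measured probe set. Kcnk2 had only 1 probe set, and other genes that met this condition are not shown. The 250 bases before the start are shown for Gja1 and Kcnk2, which held the motif bound by AP-1 transcription factors and had opposite directions, for Atp2b1, which held the core bound by NFAT factors, and for Orai1, the gene with the highest ratio. Capitals mark the matches. The windows lie at chr10:56377050-56377299 (plus strand) for Gja1, chr1:189344193-189344442 (minus strand) for 1 of the 4 listed starts of Kcnk2, chr10:98914392-98914641 (plus strand) for 1 of the 2 starts of Atp2b1 and chr5:123014824-123015073 (plus strand) for Orai1.
Gja1: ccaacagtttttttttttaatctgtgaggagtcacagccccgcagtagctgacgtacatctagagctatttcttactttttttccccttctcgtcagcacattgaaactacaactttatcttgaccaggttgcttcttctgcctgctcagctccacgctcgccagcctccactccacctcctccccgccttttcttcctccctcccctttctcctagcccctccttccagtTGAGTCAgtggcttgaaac
Kcnk2: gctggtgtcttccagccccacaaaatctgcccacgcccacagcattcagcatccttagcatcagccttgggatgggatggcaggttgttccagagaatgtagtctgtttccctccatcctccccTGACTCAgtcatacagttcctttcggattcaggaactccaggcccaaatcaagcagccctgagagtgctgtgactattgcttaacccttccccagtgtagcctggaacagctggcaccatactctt
Atp2b1: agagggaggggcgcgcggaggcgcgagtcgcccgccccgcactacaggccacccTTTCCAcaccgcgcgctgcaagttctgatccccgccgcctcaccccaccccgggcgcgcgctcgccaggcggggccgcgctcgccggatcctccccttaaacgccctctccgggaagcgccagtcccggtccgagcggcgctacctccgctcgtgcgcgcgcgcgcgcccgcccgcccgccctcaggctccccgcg
Orai1: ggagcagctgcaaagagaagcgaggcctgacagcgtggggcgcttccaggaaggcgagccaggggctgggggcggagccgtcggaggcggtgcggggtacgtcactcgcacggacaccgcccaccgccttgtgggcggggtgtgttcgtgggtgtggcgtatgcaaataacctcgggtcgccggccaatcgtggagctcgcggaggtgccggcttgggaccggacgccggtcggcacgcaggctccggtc

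Of the 34 listed genes, 28 had a promoter window in the RefSeq table, 41 windows in all, each from 250 bases before to 50 after a start. These are not the same 28 genes as the measured ones. Atp2a2, Slc12a2, Panx3, Slc6a6, Itpr1 and Akr1b3 had no window and were not searched. The AP-1 motif TGACTCA, searched on both strands (TGAGTCA on the other), was found in 2 of these windows, 19 bases before the start of Gja1 and 126 bases before that of Kcnk2. It was found in 5.2% of all 32851 windows. The NFAT core TGGAAA or its reverse complement TTTCCA, the form shown for Atp2b1, was in 6 windows of 5 genes (Atp1b3, Atp2b1, Cacna1c, Slc4a7 and Trpv2), against 21.4% of all windows. The longer tonicity element bound by NFAT5, which contains that core, was in 1 window, of Atp1b3, against 4.96% of all windows. The cAMP response element TGACGTCA was in none of the 41 and in 1.79% of all windows. A match is a run of letters, not a measured binding site.

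Both subunit genes of the sodium pump that were listed had higher signals in 4 mM phosphate. The pump exports sodium and imports potassium, and its beta subunits carry the catalytic subunit to the membrane. The only catalytic subunit gene with a probe set of its own here was Atp1a4, named after its values were seen. It lay at or under the floor on both arrays. The other catalytic subunit genes were not analysed. Atp1b1 (beta 1) had signals of 437.6 and 703.8, a log2 ratio of 0.69 or 1.61-fold. Its other 3 measured probe sets had ratios between 0.22 and 0.51, so the brightest one gave the highest value, and the median over probe sets was 0.46. Atp1b3 (beta 3) had signals of 3227 and 3851, a log2 ratio of 0.25 from its only probe set.

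Among calcium pumps, both measured genes were also higher in 4 mM phosphate. Atp2b1 encodes PMCA1, the widely expressed pump that exports calcium across the plasma membrane. Its signals were 911.7 and 1297 on the brightest probe set, 489.5 and 876.1 on the next and 274.8 and 409.8 on the dimmest, log2 ratios of 0.51, 0.84 and 0.58. All 3 probe sets were therefore higher in 4 mM phosphate, at 3 signal levels. Atp2a2 encodes SERCA2, which loads calcium into the endoplasmic reticulum. Its brightest probe set went from 2012 to 3021 (0.59), whereas a probe set with signals of 305.4 and 288.8 gave -0.08 and the range over 5 measured probe sets was -0.11 to 0.59. The median over probe sets was 0.32, so the probe sets of Atp2a2 disagree in a way those of Atp2b1 do not.

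The sodium-proton exchanger gene Slc9a8, whose product regulates pH mainly in the Golgi, had the lowest ratio of the 28. Its signals were 38.12 and 22.75 (-0.74), both close to the floor, and its other 3 probe sets were at or under it. The ratio is 1.8 times the SD of probe sets that dim, and with a floor at 100 the gene is not measured.

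The cation-chloride and bicarbonate transporters set cell volume, chloride and pH, and the 5 measured ones had log2 ratios between -0.04 and 0.18. Slc12a2 encodes NKCC1, which brings sodium, potassium and chloride in together, and had signals of 767.8 and 807.2 (0.07). The potassium-chloride exporters Slc12a4 (KCC1) and Slc12a7 (KCC4) had signals of 403 and 412.8 (0.03) and of 190.3 and 185.6 (-0.04). These 3 ratios lie within 1 SD of probe sets of like signal. The chloride-bicarbonate exchanger gene Slc4a2 (AE2) had 198.3 and 220.2 (0.15). The sodium-bicarbonate cotransporter gene Slc4a4 (NBCe1) had 144.1 and 163.4 (0.18), while its other 3 measured probe sets lay between -0.38 and -0.10. Over its probe sets the median of Slc4a4 was -0.11, so it has no settled direction.

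TRP channels admit calcium and other cations in response to stretch, heat, lipids or store depletion. Of the 4 listed, 3 had lower signals in 4 mM phosphate, all by less than 2-fold. Trpv2 had 64.68 and 41.71 (-0.63), from 1 dim probe set. Its product is also abundant in macrophages. Their 7 markers were all lower in 4 mM phosphate on the brightest probe sets, from -0.80 for Aif1 to -0.03 for Lyz2. The part of those cells in the ratio of Trpv2 was not tested. Trpv4, a mechanically and osmotically sensitive channel of bone and cartilage cells, had 113.4 and 95.16 (-0.25). Trpm7, a channel joined to a kinase and permeable to magnesium and calcium, had 1054 and 908.6 (-0.21). The other 3 probe sets of Trpm7 gave 0.09 to 0.48, so its direction rests on the brightest one. Trpc1 had 85.95 and 112.9 (0.39), with its second probe set under the floor.

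In store-operated calcium entry, STIM proteins sense the calcium of the endoplasmic reticulum and open ORAI channels in the plasma membrane. Orai1, which encodes the pore, had the highest ratio of the 28. Its probe sets went from 124.1 to 205.9 and from 40.3 to 65.5, log2 ratios of 0.73 and 0.70. Both probe sets were higher in 4 mM phosphate by nearly the same factor, and the ratio ran from 0.64 to 0.81 over the settings tried other than equal spikes, where it was 0.27. The sensor gene Stim2 had 401.8 and 520.7 (0.37), and a dim probe set with 25.8 and 17.2, the latter under the floor, gave -0.26. The sensor gene Stim1 had 148.8 and 129.7 (-0.20), with -0.82 on its other probe set. The channel gene thus lay higher, while the sensors lay on either side of 0.

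Inositol trisphosphate receptors release calcium from the endoplasmic reticulum after activation of receptors that signal through phospholipase C. Itpr3 had 61.24 and 88.68 (0.53) from 1 dim probe set. Itpr2 had 68.86 and 56.82 (-0.28), but 0.20 on a probe set next to the floor (22.4 and 25.8) and 0.20 as its value once probe sets shared between transcripts (the suffixes _s_at and _x_at) were left out. Both genes lie within 2 SD of probe sets of like signal. The 2 measured genes of voltage-gated calcium channels were within 1.5-fold on their brightest probe sets. The pore subunit gene Cacna1c (Cav1.2) had 36.02 and 47.39 (0.40), and the auxiliary subunit gene Cacna2d1 had 374.4 and 381.8 (0.03), with -0.41 and 0.68 on its other 2 measured probe sets.

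The leak potassium channels set the resting potential and with it the driving force for calcium. Kcnk1 (TWIK1) had 1437 and 1525 (0.09), and its other probe set gave 0.05. Kcnk2 (TREK1), a channel opened by stretch, had 295.5 and 192 (-0.62) from its only probe set. It was 1.54-fold lower in 4 mM phosphate, 2.4 times the SD of probe sets of like signal, against 1.06-fold higher for Kcnk1.

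The connexin and pannexin genes Gja1 and Panx3 lay on opposite sides of 0 on their brightest probe sets. Gja1 encodes connexin 43, the main gap junction protein of osteoblasts, through which ions and small messengers pass between neighbouring cells. Its 6 probe sets went from 5059 to 7979, 4428 to 6870, 2692 to 4271, 1258 to 2553, 133.4 to 259.1 and 68.9 to 127. Each of the 6 was higher in 4 mM phosphate, with log2 ratios between 0.63 and 1.02, and the brightest gave 0.66 or 1.58-fold. Of the 6, 4 carry the _x_at suffix, which marks probes that may also bind other transcripts. The brightest without it gave 0.63. Panx3 encodes pannexin 3, a channel of osteoblasts and prehypertrophic chondrocytes that releases ATP and conducts calcium. Its brightest probe set went from 6025 to 3897 (-0.63, 1.55-fold lower). The other 2 went from 60.4 to 25.5 (-1.24) and from 76.0 to 98.8 (0.38). The brightest one carries the _s_at suffix, and without it the value of Panx3 was 0.38. The other 2 probe sets disagree in direction, and the median over all 3 was -0.63.

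The osmolyte genes did not share a direction. Nfat5, the transcription factor that responds to high tonicity, had 310.7 and 439.6 (0.50, 1.41-fold higher). Another of its probe sets lay under the floor in 1 mM and at 35.7 in 4 mM phosphate, at least 0.73, and 4 more were at or under the floor on both arrays. Slc6a6, the taurine transporter and a known NFAT5 target, was lower on both measured probe sets, from 2873 to 1938 and from 1048 to 713.2, log2 ratios of -0.57 and -0.56. Slc5a3, the sodium-dependent myo-inositol transporter and another known NFAT5 target, went from 1326 to 1074 (-0.30) and from 149.2 to 138.1 (-0.11). Both transporter genes were thus lower in 4 mM phosphate, while the gene of their known regulator was higher.

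**Figure D2:**
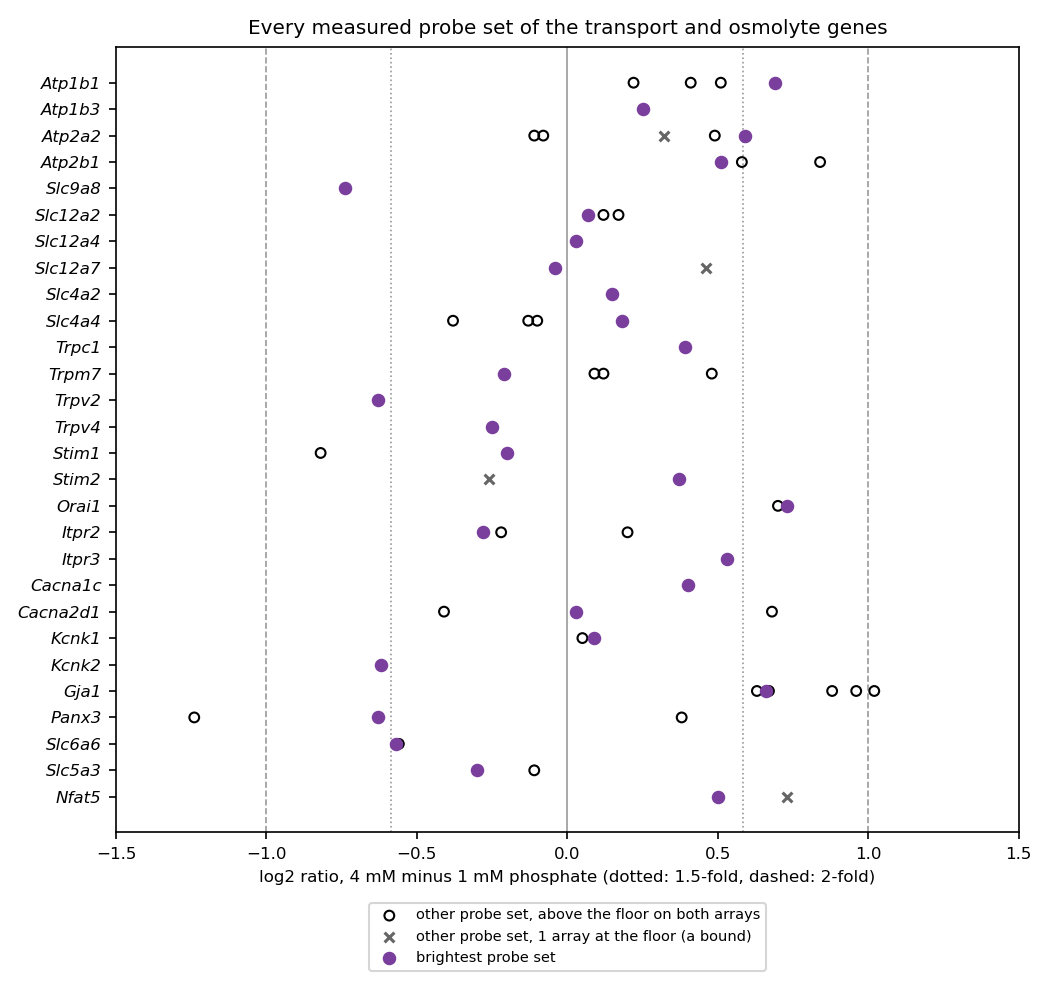
Log2 ratio (4 mM minus 1 mM phosphate) of every measured probe set of the 28 genes. Filled points are the brightest probe set, open points other probe sets with both signals above the floor, and crosses bounds with 1 array at the floor. All 6 points of Gja1 lie between 0.63 and 1.02, while those of Panx3 span -1.24 to 0.38.

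Agreement between probe sets was counted for the 15 genes with at least 2 probe sets for which both signals exceeded the floor. In 9 of the 15 all such probe sets lay on the same side of 0, against 59.6% of the 4954 genes of that kind in the series. In 6 of the 9 they were higher (Atp1b1, Atp2b1, Gja1, Kcnk1, Orai1 and Slc12a2) and in 3 lower (Slc5a3, Slc6a6 and Stim1). All probe sets were at least 1.5-fold higher in 2 of the 15, Gja1 and Orai1, against 3.15% of the 4954 genes. Over single probe sets, 1 of Gja1 (1.02) was at least 2-fold higher and 1 of Panx3 (-1.24) at least 2-fold lower.

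**Figure D3:**
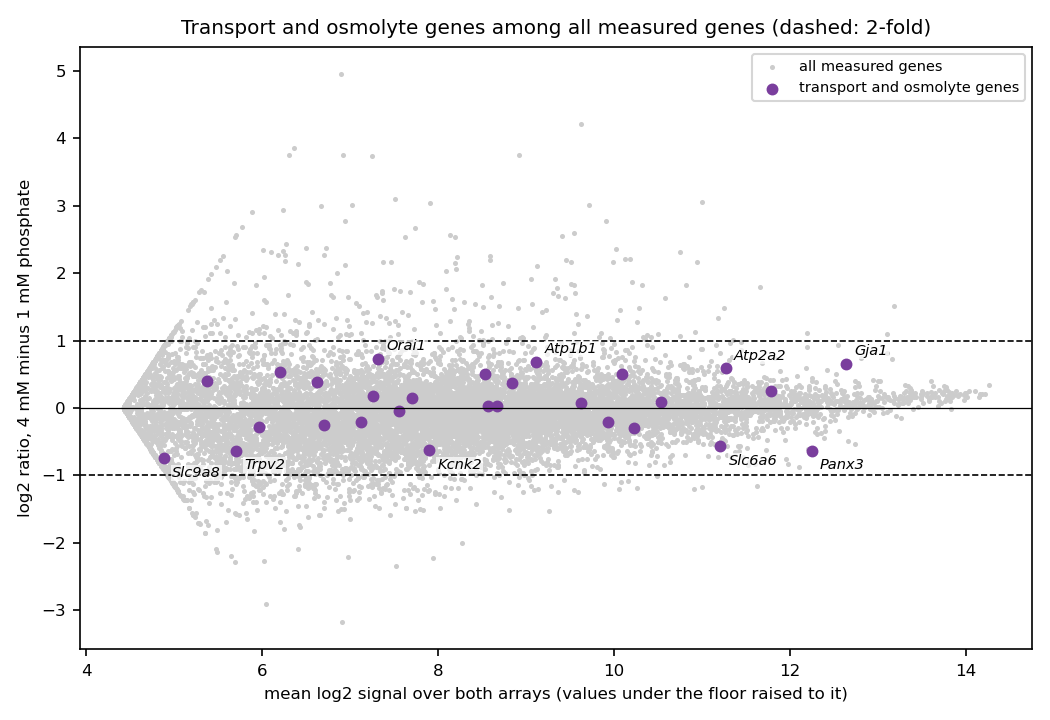
Log2 ratio (4 mM minus 1 mM phosphate) against mean log2 signal for all 12276 measured genes (grey) and the 28 transport and osmolyte genes (purple), with 2-fold dashed. Every purple point lies between the dashed lines, from -0.74 to 0.73, and genes at least 1.5-fold different are named, with Slc6a6.

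Further genes of the same systems were taken from 11 lists of 194 symbols, of which 164 had a probe set that named only them and 97 were measured. Of the 97, 2 were 2-fold or more higher and 3 were lower by as much, and the median log2 ratio was -0.05, against -0.06 over all measured genes. These are 2.06% and 3.09%, against 2.3% and 2.92% of all measured genes. At 1.5-fold, 10 were higher and 14 lower, 24.7% in all against 19.4% of all measured genes, where 7.26% were higher and 12.1% lower. The counts of single lists below stand against these last 2 shares. Of the 5 genes at 2-fold, 4 belonged to the osmotic and calcineurin lists and 1 to the connexins.

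Among 13 measured genes of osmolyte handling and volume regulation, Hspa4l, a heat shock protein of the HSP110 family also induced by osmotic stress, was highest. It went from 95.17 to 289.6 (1.61, 3.04-fold higher), its 5 measured probe sets gave 0.95 to 1.61, and it stayed at 1.14 with equal spikes. The chaperone gene Hspa1b, another tonicity-responsive gene, went from 200.9 to 329.6 (0.71) and had ratios of 0.68 to 1.44 over 3 probe sets. The lowest were Gpcpd1, an enzyme that degrades the osmolyte glycerophosphocholine, with 714.5 and 422.9 (-0.76, but 0.75 on another probe set), and Csad, of taurine synthesis, with 504.2 and 368.1 (-0.45). Of the 13 genes, 3 were at least 1.5-fold higher and 1 lower, against 7.26% and 12.1% of all measured genes, and the median was 0.27.

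Among 18 measured genes of calcineurin, NFAT and calcium-calmodulin signalling, Rcan1 had the largest ratio. Rcan1 encodes a calcineurin inhibitor whose short form is a known NFAT target. It went from 385.5 to 1377 (1.84, 3.57-fold higher), gave 1.92 on its other probe set and stayed at 1.37 with equal spikes. Ppp3ca, the gene of 1 of several catalytic subunits of calcineurin, went from 961.3 to 1827 (0.93), and its 3 probe sets gave 0.32 to 0.93. The related inhibitor gene Rcan2 went the other way, from 390.8 to 160.6 (-1.28), and the kinase gene Camk2a from 74.37 to 36.12 (-1.04). The median of this list was -0.03, with 3 genes at least 1.5-fold higher and 3 lower.

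Calcium exchangers other than the listed one were detected. Slc8a3, which encodes the sodium-calcium exchanger NCX3, went from 3299 to 2002 (-0.72), with -0.45 on its other probe set, while all 4 probe sets of Slc8a1 were at or under the floor. Slc24a3, a potassium-dependent sodium-calcium exchanger, went from 213.1 to 127.9 (-0.74). The endoplasmic reticulum pump gene Atp2a3 was dim, with 21.78 and 36.3 (0.74), and Slc8b1, the mitochondrial sodium-calcium exchanger, went from 170.3 to 232.1 (0.45, or -0.02 with equal spikes). Of the 6 measured genes of this list, 1 was at least 1.5-fold higher and 2 lower.

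Of the list of store-operated, endoplasmic reticulum and mitochondrial calcium channels, 1 of 10 measured genes was at least 1.5-fold higher and 0 lower. That gene was Orai2, a paralogue of Orai1, which went from 56.5 to 99.14 (0.81), with 0.42 on its other probe set. Mcu, the pore of the mitochondrial calcium uniporter, was next at 0.31 (-0.15 with equal spikes), but at -0.14 on its other probe set. The regulators of the uniporter, Micu2 (878.8 and 594.2, -0.56) and Micu3 (-0.40), were lowest. Of 11 measured genes of TRP, polycystin and Piezo channels, 0 were 1.5-fold higher and 3 lower, against 7.26% and 12.1% of all measured genes. One of the lower genes, Trpc7, named after its values were seen, was at 41.34 in 1 mM phosphate and under the floor in 4 mM phosphate. The lowest on both arrays were Trpm3, with 45.16 and 24.29 (-0.89), and Trpm4, a cation channel opened by calcium, with 232 and 144.5 (-0.68). The highest were Mcoln2, at 26.09 and 35.28 (0.44, or -0.03 with equal spikes), and Piezo1, a channel opened by stretch, at 571.4 and 734.8 (0.36, or -0.10 with equal spikes).

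In the sodium pump list, with 6 measured genes, Fxyd5, a regulator of the pump, went from 733.7 to 1109 (0.60) and Fxyd3, of the same family, from 52.44 to 74.36 (0.50). The pump subunit gene Atp1b2 was dim and went from 38.87 to 25.2 (-0.63), and Fxyd6 was at -0.41. Of the 6 genes, 1 was at least 1.5-fold higher and 1 lower, and the median was -0.28. Gjb2 (connexin 26) was at 64.17 in 1 mM phosphate and under the floor in 4 mM phosphate, at least 2.99-fold lower, whereas Gjc1 (connexin 45) and Panx1 lay at 0.30 (-0.17 with equal spikes) and 0.50. Of the sodium-proton exchangers, Slc9a7 (0.17) and Slc9a9 (0.13) exceeded the floor in both media, and both turn below 0 with equal spikes. The other probe set of Slc9a9 gave -0.49. The 1 gene of this list past 1.5-fold was Slc9a5, named after its values were seen, which was under the floor in 1 mM and at 39.27 in 4 mM phosphate, a log2 ratio of at least 0.87 (0.41 with equal spikes). None of the 11 measured genes of chloride and bicarbonate transport and their WNK kinases was 1.5-fold different. Of the 10 that exceeded the floor in both media, Stk39 (-0.38) and Slc12a9 (-0.30) were lowest and Wnk2 (0.12) and Slc4a10 (0.16) highest. None of the 4 further leak potassium channel genes was either, with Kcnk5 at 0.24, Kcnk6 at -0.09 and Kcnk13 at -0.15. Of the 11 further voltage-gated calcium channel genes measured, 3 were at least 1.5-fold lower (Cacna1a, Cacna1d and Cacng7, named after their values were seen), each with 1 array at the floor. Only Cacna1g (0.06, or -0.40 with equal spikes) and Cacnb1 (-0.13) were above it on both arrays.

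**Figure D4:**
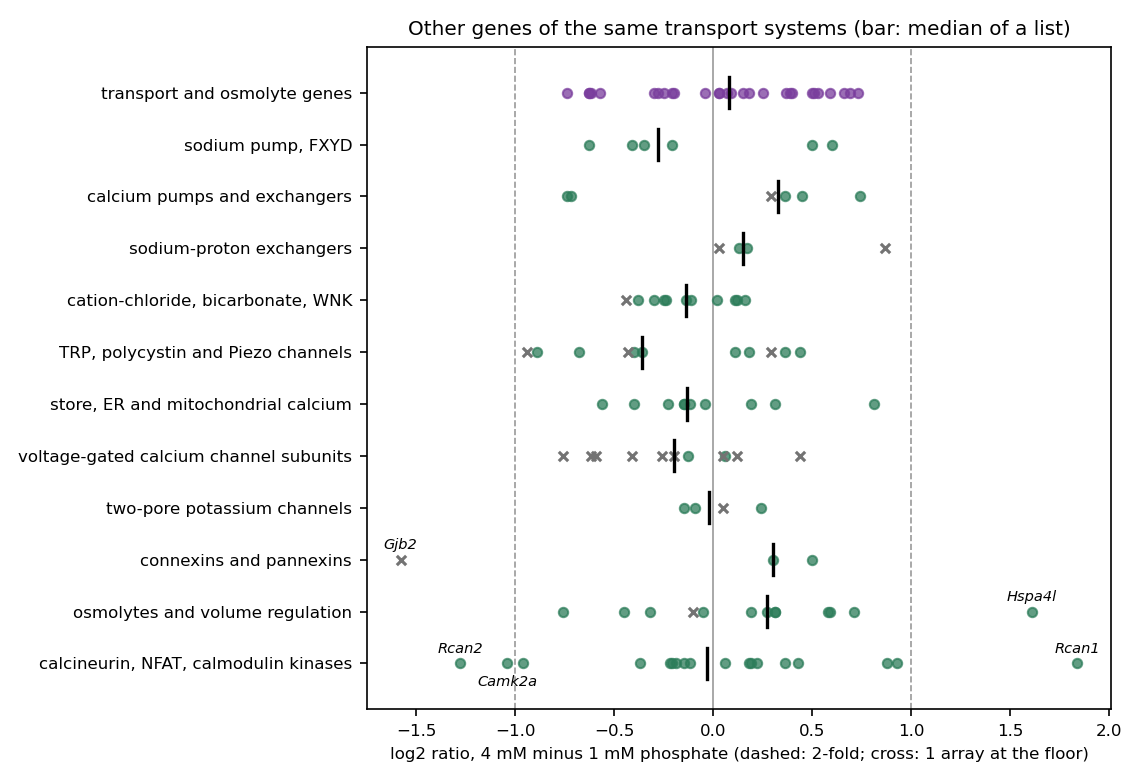
Log2 ratio (4 mM minus 1 mM phosphate) of the 28 transport and osmolyte genes (purple) and of 97 further genes of the same systems in 11 lists (green, or crosses where 1 array was at the floor), with the median of each list as a bar. Only Hspa4l and Rcan1 lie beyond 2-fold higher, and Rcan2, Camk2a and Gjb2 beyond 2-fold lower.

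**Figure D5:**
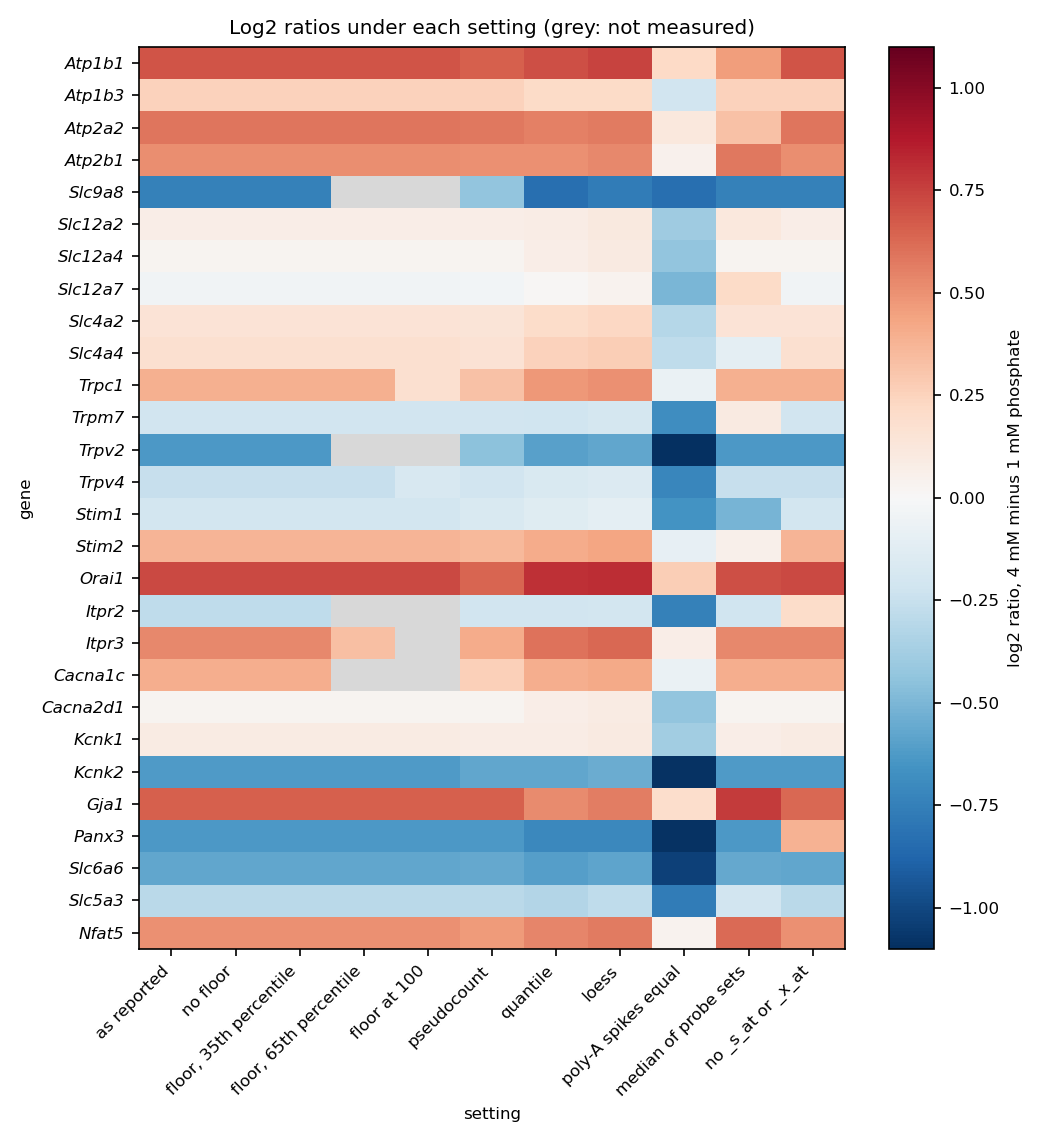
Log2 ratio (colour) of each of the 28 genes under the reported setting and 10 others, grey where a gene was not measured. With the poly-A spikes set equal, the median was -0.38 and 7 genes stayed above 0, and Panx3 was at 0.38 without probe sets ending in _s_at or _x_at.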

How the data were processed

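RNA of 1 control and 1 phosphate-treated culture was measured, with groups taken from the sample labels. The deposited intensity values were made by the authors with MAS5 in GCOS 1.4, per the submitters' processing notes, which gives 1 background-corrected signal per probe set and scales each array by 1 factor. After trimming 2% of probe sets at either end, both arrays had a mean of 200.0, so a change in total mRNA per cell does not show. Single probes and detection calls were not analysed, and arrays have no read depth: their number limits the precision.

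Of 45101 probe sets, 64 were manufacturer's controls. The annotation named 1 gene for 34945 of the others, several for 932 and none for 9160. Symbols were checked by Entrez identifier against RefSeq (GRCm38.p6), which held 34741 of them and changed 0. The brightest probe set was that with the highest mean log2 signal after the floor. The calculation was checked on a second array made from the first with known changes. Genes named were the 34 listed genes, the 2 highest and 2 lowest of each further list (measured on both arrays) or any at 2-fold, and cell type markers. Members, lists and limits were chosen with earlier results of these data known. Alternatives were other floors, a pseudocount, quantile, loess (span 0.3) and spike scaling, and other probe set rules. Python 3.11.15, pandas 2.3.3 and statsmodels 0.14.6 were used.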

Additional observations from a re-analysis of the deposited data

How the results depend on the processing

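No listed gene was at least 2-fold higher under any of the 10 alternatives, and none was 2-fold lower under 9 of them. With the poly-A spikes set to equal signal, 4 of the 28 were at least 2-fold lower (Kcnk2, Panx3, Slc6a6 and Trpv2). At 1.5-fold, 0 were higher and 10 lower, and the median was -0.38. Of all 11876 genes measured on that scale, 1563 were at least 2-fold lower, 2.14% were 1.5-fold higher and 41.8% were 1.5-fold lower. The count at least 1.5-fold lower was 2 of 24 measured with a floor at the 65th percentile and 2 of 23 with one at 100. It was 2 of 28 after loess correction and 1 of 28 with a pseudocount. In the same order, 9.46%, 8.32%, 10.2% and 9.13% of all measured genes were lower by as much. Gja1 (0.52 and 0.56) and Atp2a2 (0.55 and 0.57) were under 1.5-fold after quantile normalization and loess correction, where Itpr3 (0.60 and 0.63) was above it. Elsewhere these counts lay within 1.5 times of those reported and the median moved by less than 0.1. Of 271 values of single genes under an alternative, 236 moved by less than the SD between probe sets of like signal. Apart from the spike scaling, 23 of 28 genes kept their sign throughout, the others being Itpr2, Panx3, Slc12a7, Slc4a4 and Trpm7. The 1.5-fold counts were added after seeing the data. Signals near the floor limit Slc9a8, Trpv2, Itpr2, Itpr3 and Cacna1c, which are not measured with the floor at 100. No paired analysis was possible because each condition had 1 array.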
